A study of Mus musculus with 6 samples.

Results

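The cells described here were dendritic cells (DCs) grown from mouse bone marrow and chosen by their own transcripts. A cell was a member when it held unique molecular identifiers (UMIs, 1 per captured RNA molecule) of at least 4 of 9 genes, namely Itgae, Clec9a, Kmo, Tcea3, Rtn1, Tespa1, Klrb1b, Kctd14 and Dmpk. There were 347 members among the 16082 cells kept from both libraries, and 35083 cells were kept in the whole series of 6 libraries. Untreated DCs held 221 members among 7257 cells, a share of 3.05% (95% interval 2.66 to 3.47). VD3 stimulated DCs held 126 members among 8825 cells, a share of 1.43% (1.19 to 1.70). These shares describe the choice of cells and were not tested.

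The untreated DCs were bone marrow cells of C57BL/6J wild-type mice aged 6 weeks, cultured with granulocyte-macrophage colony-stimulating factor. The VD3 stimulated DCs came from the same kind of culture with vitamin D3 (VD3) at 1e-06 M for 24 h from day 7. Each condition was measured once, as 1 droplet library of 3′ single-cell RNA counts. Differences between them therefore lack a replicate check, and p-values were not computed. Neither library carried a gene edit. Before filtering, the untreated library held 136905324 UMIs over 7866 barcodes, and the VD3 library 124731240 UMIs over 9794. Members summed to 7897931 UMIs in untreated and 2413805 UMIs in VD3 stimulated DCs. Levels are given as counts per 1000000 UMIs of the same cells (CPM), and every interval is an exact 95% interval that covers counting error only. Of the kept barcodes, 15 occurred in both libraries and 0 of these were members.

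Type 1 conventional DCs (cDC1) develop from Flt3-dependent precursors under the transcription factors Irf8 and Batf3, and present antigen taken up from dead cells to cytotoxic T cells. Clec9a is their receptor for exposed actin of dead cells, Xcr1 their chemokine receptor, and Itgae the integrin chain that pairs with Itgb7 to bind E-cadherin. The active form of vitamin D3 binds the nuclear receptor Vdr, which pairs with retinoid X receptors on DNA and strongly induces Cyp24a1, the enzyme that degrades the hormone.

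The 9 genes did not select equally deep cells. Untreated members had a median of 31553 UMIs against 15650 in the other untreated cells, and VD3 stimulated members a median of 14241.5 against 12061. Just inside the threshold, 58 untreated and 39 VD3 stimulated cells held 4 of the genes, with medians of 47319.5 and 14997 UMIs. Just outside it, 117 and 51 cells held 3 of the genes, with medians of 40430 and 18340 UMIs. Cells with 8 or 9 of the genes were shallower in untreated DCs, at a median of 17545 UMIs in 63 cells, and VD3 stimulated DCs had 5 such cells. Depth therefore moved with the number of genes held, and its part in the choice of cells with 4 or 5 genes was not tested.

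Among the rule genes, Itgae reached 105 CPM (98.1 to 112) in untreated members and 162 CPM (147 to 179) with VD3. Clec9a was counted at 31.3 CPM (27.5 to 35.4) and 58.4 CPM (49.2 to 68.9). Both genes had UMIs in 99 untreated (44.8%) and 60 VD3 stimulated members (47.6%). Neither gene had a UMI in 50 untreated (22.6%) and 9 VD3 stimulated members (7.14%), and 37 of those 50 cells held only 4 rule genes. After each cell was drawn to 2000 UMIs, which left out 472 untreated and 1149 VD3 stimulated cells but 0 members, Itgae was seen in 26.7% of untreated and 31.0% of VD3 stimulated members, against 73.8% and 89.7% before. In 137 untreated and 211 VD3 stimulated cells marked by neutrophil genes, with median depths of 13954 and 11544 UMIs, the drawn share was 0%, which allows up to 2.66% and 1.73%. Itgae was used to choose the members, so these shares are a description only. Kctd14 and Klrb1b were themselves lower with VD3 in the other cells, with log2 ratios of -3.97 and -2.27, so the rule did not meet the same expression in both libraries.

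Markers beyond the rule were read to check whether the members were cDC1-like, and the answer differed with the number of rule genes held and between the libraries. Irf8 (ENSMUSG00000041515) was counted at 787 CPM (746 to 830) in untreated cells with 8 or 9 rule genes, at 56.9 CPM (48.2 to 66.7) in those with 4, and at 127 CPM in those with 0 or 1. The 126 untreated members with at least 6 rule genes, a limit chosen after these levels were seen, had Irf8 at 560 CPM, and the 95 with 4 or 5 had it at 82.3 CPM. Xcr1 was counted at 5.56 CPM in the first and 0 CPM in the second group, and Flt3, the receptor for the DC growth factor Flt3 ligand, at 29.9 CPM and 2.91 CPM. Tlr3, a sensor of double-stranded RNA in cDC1, was counted at 14.6 CPM and 3.16 CPM. Wdfy4, which cDC1 need for cross-presentation, differed less between them, at 182 CPM and 109 CPM.

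In VD3 stimulated DCs Irf8 did not set these members apart from the other cells. The 51 members with at least 6 rule genes had Irf8 at 303 CPM, the 75 with 4 or 5 at 261 CPM and the other cells at 308 CPM. Drawn to 2000 UMIs, Irf8 was seen in 37.3% of the first and 40.0% of the second group (92.2% and 96.0% undrawn). The share was 34.9% in the other cells (71.3% undrawn) and 8.06% in neutrophil-marked cells (17.1% undrawn). In the first and second group Flt3 was at 11.2 and 3.5 CPM, Tlr3 at 23.4 and 7.69 CPM, and Xcr1 at 4.07 and 0 CPM.

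Other parts of the label were not met. Of the 16 cDC1 markers beyond the rule, 9 had enough UMIs to compare members with the other untreated cells, and 3 were at least 4-fold higher in members (Tlr3, Wdfy4 and Ifi205), while 94 of 10829 genes (0.868%) reached that level. That number of genes was 198 of 9328 among cells of 5000 to 40000 UMIs and 138 of 9373 among cells with under 5% mitochondrial UMIs. In VD3 stimulated DCs, 4 of 10 did (Tlr3, Wdfy4, Snx22 and Gcsam), against 158 of 9203 genes (1.72%). The median log2 ratio of the list was 0.68 in untreated and 0.81 in VD3 stimulated DCs, beside 0.13 and 0.04 over all genes compared. Batf3 was lower in untreated members than in the other cells, at 59.4 CPM (54.1 to 65.0) against 147 CPM, Cd8a was counted at 0.127 CPM, and Naaladl2 was at 0. The largest part of the summed level of the list, 1810 CPM in untreated members and 1347 CPM in the other cells, came from Id2 at 866 and 772 CPM, a factor many DCs share. Untreated members also carried genes of type 2 conventional DCs (cDC2). Of 9 cDC2 markers compared, 2 were at least 4-fold higher in members (Cd209a and Cd209d), the median log2 ratio was 0.30, and the list summed to 1540 CPM against 1140 CPM in the other cells. Mgl2, the most abundant, was at 788 against 473 CPM, Sirpa at 182 against 194 CPM and Itgam at 227 against 197 CPM. Macrophage and monocyte markers summed to 10281 against 10955 CPM. In untreated members with at least 6 rule genes the cDC2 list still summed to 1327 CPM, with Mgl2 at 647 CPM. Macrophage and monocyte markers summed to 9480 CPM there, and the cDC1 list to 2285 CPM, with Id2 at 1051 CPM. The cells are therefore called members, by their rule. High summed Irf8 with Flt3 and some Xcr1 is stated only for untreated members with at least 6 rule genes. Undrawn, Irf8 was seen in 97.6% of these cells, Flt3 in 52.4% and Xcr1 in 9.52%. Most of these cells therefore had no Xcr1 UMI, and the Xcr1 level describes their sum only.

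**Figure D1:**
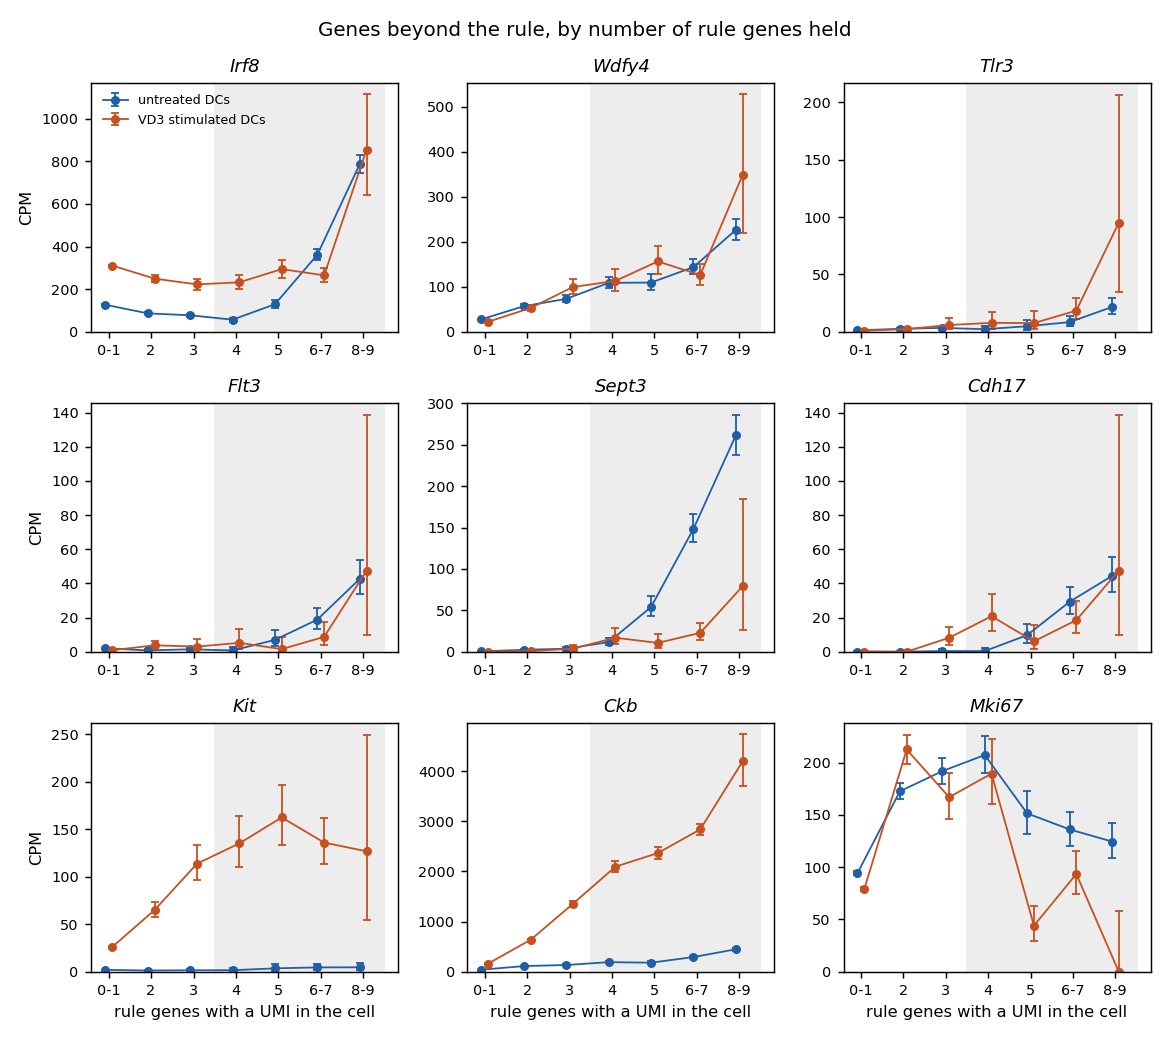
Levels of 9 genes that the rule did not use, in counts per 1000000 UMIs (vertical axes), in cells grouped by the number of rule genes with a UMI (horizontal axes), for untreated (blue) and VD3 stimulated DCs (orange). Points are UMIs summed over the cells of a group, bars are 95% Poisson intervals, and grey marks members; Irf8 in untreated DCs went from 56.9 CPM at 4 rule genes to 787 CPM at 8 or 9, while Ckb, picked after its values were seen, was higher in VD3 stimulated DCs in each group of members.

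Markers of other cell types were counted in full. Of 11 progenitor markers compared, 2 were at least 4-fold higher in untreated members (Cd34 and Flt3) and 2 lower (Sox4 and Prtn3). Of all genes, 0.868% and 0.748% were. In VD3 stimulated members 3 of 7 were higher (Cd34, Kit and Flt3) and 0 lower, beside 1.72% and 0.435%. The median log2 ratios of the list were 0.49 and 0.95, beside 0.13 and 0.04. Of 4 NDRG family genes 1 was higher in untreated members, Ndrg2, and in VD3 stimulated members 0 of 3. Of 15 NK and T cell markers, 6 had a UMI in untreated and 2 in VD3 stimulated members, with summed levels of 16.5 and 5.80 CPM. Klrk1 gave most of it, at 15.3 and 4.97 CPM, and Ncr1, Gzma, Trac and Trbc1 were at 0 in both. Of 7 B cell markers, 2 had a UMI in each library, nearly all of it Ighm at 16.7 and 23.2 CPM, with Cd79a, Ms4a1, Pax5 and Ebf1 at 0. Of 9 basophil and mast cell markers, 3 and 1 had a UMI, summing to 8.23 and 0.829 CPM, mostly Cd200r3 at 6.58 and 0.829 CPM, and Mcpt8, Cpa3 and Fcer1a were at 0. Plasmacytoid DC markers summed to 384 CPM without VD3 and to 220 CPM with it, with 9 and 7 of 10 seen. Their most abundant genes were Ly6c2 in untreated members, at 179 CPM, and Bst2 in VD3 stimulated members, at 150 CPM. Other cells also express both genes, and Ly6d was at 0 in the members of both libraries.

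Neutrophil markers were present but low. In untreated members, 9 of 11 had a UMI and summed to 1638 CPM against 5775 CPM in the other cells, with S100a8 the most abundant at 986 CPM. In VD3 stimulated members, 9 of 11 summed to 815 CPM against 6603 CPM, S100a8 giving 525 CPM. Camp and Retnlg were at 0 in the members of both libraries. A single VD3 stimulated member held 77.5% of the S100a9, 80.4% of the S100a8 and 97.9% of the Ngp UMIs of all VD3 stimulated members. Ngp, at 0.506 and 19.9 CPM, therefore describes that cell, and its higher level with VD3 in the members (log2 ratio 5.30, 3.85 to 7.23) rests on it. S100a9 was lower with VD3 by a log2 ratio of -1.34, and of -3.01 without the member holding the most of it in each library.

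The genes with the highest ratio of members over the other untreated cells, among those beyond the rule with at least 50 UMIs, had varied functions. These ratios describe cells that were chosen by measured values and were not tested. Cdh17 (ENSMUSG00000028217), a cadherin, was counted at 19.2 CPM (16.3 to 22.6) in members and 0.0802 CPM in the other cells, a ratio of 240. Cd207 (ENSMUSG00000034783), the lectin langerin of Langerhans cells and some cDC1, was at 15.2 CPM (12.6 to 18.2) against 0.0802 CPM. Sept3 (ENSMUSG00000022456), a septin filament gene, was the most abundant of the leading genes at 110 CPM (103 to 118) against 0.706 CPM.

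Several of these leading genes, like Irf8, were higher in the cells with many rule genes. Sept3 was at 201 CPM in untreated members with at least 6 rule genes and 26.5 CPM in those with 4 or 5. The kinase gene Dapk2 was at 72.0 and 3.64 CPM, the actin-binding gene Dbn1 at 41.0 and 4.37 CPM, and Hpgds, which makes prostaglandin D, at 60.1 and 8.98 CPM. Havcr2, the checkpoint receptor Tim-3 found on cDC1, was at 31.0 and 5.10 CPM. The paper lists Havcr2 beside the 9 rule genes as a top gene of the same cluster. Its level in members is therefore not independent of the choice of rule genes. Among the other leading genes, the lectin gene Cd209a was counted at 23.3 CPM in members against 0.938 CPM in other cells, the Notch ligand gene Jag2 at 8.48 against 0.481 CPM, and Ifi205 at 13.7 against 0.730 CPM.

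Antigen presentation and adhesion genes were also set against the other cells. Of 12 genes of MHC class II presentation, 2 were at least 4-fold higher in untreated members (Ciita and H2-Ob), beside 0.868% of all genes, and 2 in VD3 stimulated members (H2-Ab1 and H2-Ob), beside 1.72%. The median log2 ratio of the list was 0.89 in untreated and 1.15 in VD3 stimulated DCs, beside 0.13 and 0.04 over all genes. Ciita, the master regulator of these genes, was counted at 175 CPM (166 to 185) in untreated members against 38.0 CPM, and H2-Ob, which tempers peptide loading, at 16.2 against 2.01 CPM. With VD3 the values were 51.8 against 17.3 CPM, short of 4-fold, and 15.7 against 3.17 CPM. Itgb7, the partner chain of Itgae, was at 68.9 CPM (63.2 to 74.9) against 15.2 CPM, and Cdh1, which encodes their ligand E-cadherin, at 127 against 45.7 CPM, and with VD3 they were at 229 against 48.5 CPM and 16.2 against 2.21 CPM. Of these, Cdh1 in untreated DCs was short of 4-fold. Mfge8, a bridge to dying cells, was at 627 CPM (610 to 645) against 105 CPM, and Runx3, a factor that promotes Itgae in T cells, at 193 against 68.1 CPM. With VD3 they were at 66.7 against 35.5 CPM and 193 against 59.7 CPM, so Mfge8 was past 4-fold in untreated DCs only and Runx3 in neither library. Ifitm1, an interferon-induced membrane gene, was at 2919 CPM in untreated members against 458 CPM, and at 6065 CPM in VD3 stimulated members against 911 CPM.

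Genes of DC maturation went the other way. All 8 mature DC markers had a UMI and summed to 1117 CPM in untreated members against 6629 CPM in the other cells, and to 1405 against 6301 CPM in VD3 stimulated DCs. Ccl5 was the most abundant, at 427 and 420 CPM in members. In untreated DCs 6 of the 8 were at least 4-fold lower in members, as were 81 of 10829 genes (0.748%), and in VD3 stimulated DCs 4 of the 8, as were 40 of 9203 genes (0.435%). In untreated DCs Ccr7, which guides mature DCs to lymph nodes, was at 66.9 CPM (61.3 to 72.8) against 446 CPM and the actin-bundling gene Fscn1 at 37.6 against 231 CPM. Cell cycle markers summed higher in members, at 1398 against 910 CPM in untreated and 967 against 745 CPM in VD3 stimulated DCs, with Stmn1 the most abundant. Mki67 was at 207 CPM in untreated members with 4 rule genes and 125 CPM in those with 8 or 9. Their part in the differences between members and other cells was not tested.

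Between the libraries, members differed in many genes. Of 9151 genes with at least 50 UMIs in both sums together, 384 (4.2%) were at least 2-fold higher in VD3 stimulated members with an interval that excluded 1, and 950 (10.4%) were lower. The median log2 ratio of all tested genes was -0.18, and the counts and medians of the gene lists given for VD3 in members stand against these 3 values. When sums were scaled by the median ratio, which adds 0.18 to every log2 ratio, 543 genes were higher and 672 lower, so the balance of the directions depended on the scaling. In the other cells, which come from the same libraries, 529 of 13058 genes (4.05%) were higher and 944 (7.23%) lower, with a median of -0.07. In members with at least 6 rule genes, 126 untreated and 51 VD3 stimulated cells, 268 of 7431 genes (3.61%) were higher and 667 (8.98%) lower. Of the 384 higher genes of all members, 213 were also higher in these cells and 112 had too few UMIs there, and of the 950 lower ones the numbers were 479 and 277.

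Cyp24a1 (ENSMUSG00000038567) was the largest rise by rank. It had 0 UMIs in untreated and 700 UMIs in VD3 stimulated members, 290 CPM (269 to 312), which is at least 763-fold against a floor of 3 counts. The other cells of the libraries had 1 and 35962 UMIs, and 315 CPM with VD3. At 2000 UMIs per cell it was seen in 28.6% of VD3 stimulated members (66.7% undrawn) and in 33.6% of the neutrophil-marked cells (46.4% undrawn), so the share in members was not above what cells of another type showed. Of the other 14 genes of the vitamin D list, 8 could be compared. Vdr was counted at 30.3 CPM (26.5 to 34.4) and 119 CPM (106 to 134), a log2 ratio of 1.98 (1.73 to 2.23). Rxrb and the hydroxylase gene Cyp27a1 were also higher, with log2 ratios of 1.08 and 1.25, and Rxra was lower, at 28.1 and 8.29 CPM (log2 ratio -1.76, -2.50 to -1.10). The median log2 ratio of the list was -0.51. Rxrb and Cyp27a1 were not past 2-fold in members with at least 6 rule genes, at 0.98 (0.40 to 1.53) and 0.85 (-0.10 to 1.75), while Vdr and Cyp24a1 were higher and Rxra, Trem1 and Igfbp4 lower.

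Receptor, growth factor and regulator genes were among the 15 largest rises. Kit (ENSMUSG00000005672), the receptor for stem cell factor, went from 3.29 CPM (2.15 to 4.82) in untreated members to 143 CPM (128 to 158) with VD3, a log2 ratio of 5.44 (4.86 to 6.07). It was also higher in the other cells, from 1.80 to 28.3 CPM. Drd4, a dopamine receptor gene, had 0 UMIs in untreated members and 43.1 CPM (35.2 to 52.2) with VD3, at least 113-fold, and reached 2.45 CPM in the other VD3 stimulated cells. Its drawn share was 6.35% of VD3 stimulated members (43.7% undrawn) and 0% of neutrophil-marked cells. The stress cytokine gene Gdf15 went from 7.34 to 370 CPM and the growth factor gene Hbegf from 3.29 to 116 CPM, with log2 ratios of 5.65 (5.27 to 6.06) and 5.14 (4.56 to 5.78). Asb2, which targets filamins for degradation, was at 26.8 and 355 CPM, and the lymphoid transcription factor gene Pou2f2 at 6.84 and 109 CPM.

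Ifitm6, of the same family as Ifitm1, went from 3.17 CPM (2.05 to 4.67) to 152 CPM (136 to 168), beside 3.94 and 83.2 CPM in the other cells. The actin-binding gene Ablim1 had a log2 ratio of 4.23 (3.70 to 4.80) in members and 3.08 in the other cells.

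For some genes the values in the other cells stood well apart from those in members, such as Spns3 and Sept1 among the 15 largest rises. Spns3, a member of the spinster transporter family, had a log2 ratio of 4.05 (3.56 to 4.57) in members and 1.10 in the other cells, and the septin gene Sept1 had 4.05 (3.67 to 4.45) and 1.74. Irf7, a regulator of type I interferon genes from the interferon response list with 11 and 41 UMIs in members, was counted at 1.39 and 17.0 CPM in members (3.61, 2.62 to 4.72) and at 1.27 and 1.33 CPM in the other cells, and had too few UMIs to be compared in members with at least 6 rule genes. Whether members and other cells differ in their response was not tested.

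Creatine kinase B, Ckb, was chosen after its values were seen. It went from 270 CPM (259 to 282) to 2506 CPM (2444 to 2570) with VD3 in members, against 49.0 and 193 CPM in the other cells. Drawn to 2000 UMIs, it was seen in 37.1% and 98.4% of members (95.5% and 100% undrawn) and in 0.730% and 8.53% of neutrophil-marked cells.

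The cDC1 markers as a list moved little with VD3. Of 16 in the files 11 could be compared, 2 were higher, 0 were lower, and the median log2 ratio was 0.10 against -0.18 over all genes. The 2 were Gcsam, a germinal center signalling gene, at 2.28 CPM (1.35 to 3.60) and 71.3 CPM (61.0 to 82.7), and the sorting nexin gene Snx22, at 1.77 CPM (0.969 to 2.97) and 37.7 CPM (30.4 to 46.3). Irf8 was at 311 CPM (299 to 323) and 278 CPM (257 to 300) in all members. In those with at least 6 rule genes it was at 560 and 303 CPM, a log2 ratio of -0.89 (-1.07 to -0.71), while in the other cells it went from 121 to 308 CPM. Wdfy4 had a log2 ratio of -0.08 (-0.26 to 0.10), and Xcr1, at 2.66 and 1.66 CPM, was too sparse for a difference to be detectable.

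Of 15 progenitor markers 7 could be compared, of which 2 were higher with VD3, Kit and Meis1, and 2 lower, Flt3 and Csf1r, with a median log2 ratio of 0.05. Flt3 was at 15.8 CPM (13.2 to 18.9) and 6.63 CPM (3.79 to 10.8), and Csf1r, the receptor for macrophage colony-stimulating factor, at 207 and 82.0 CPM (-1.34, -1.56 to -1.12). Meis1, a homeobox gene of blood stem cells, was at 5.06 and 21.5 CPM (2.09, 1.47 to 2.72). The stem cell marker Cd34 was at 52.4 and 50.5 CPM, a log2 ratio of -0.05 (-0.36 to 0.24).

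The genes that led the ratio of members over the other untreated cells also differed in direction with VD3. Cd207 had 0 UMIs in VD3 stimulated members, at least 12.2-fold lower, and Sept3 was at 19.1 CPM (14.0 to 25.4), a log2 ratio of -2.53 (-2.99 to -2.10). Cdh17, Dbn1 and Jag2 had intervals that included 1. Havcr2 was higher, at 17.5 and 64.6 CPM (1.89, 1.55 to 2.23).

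**Figure D2:**
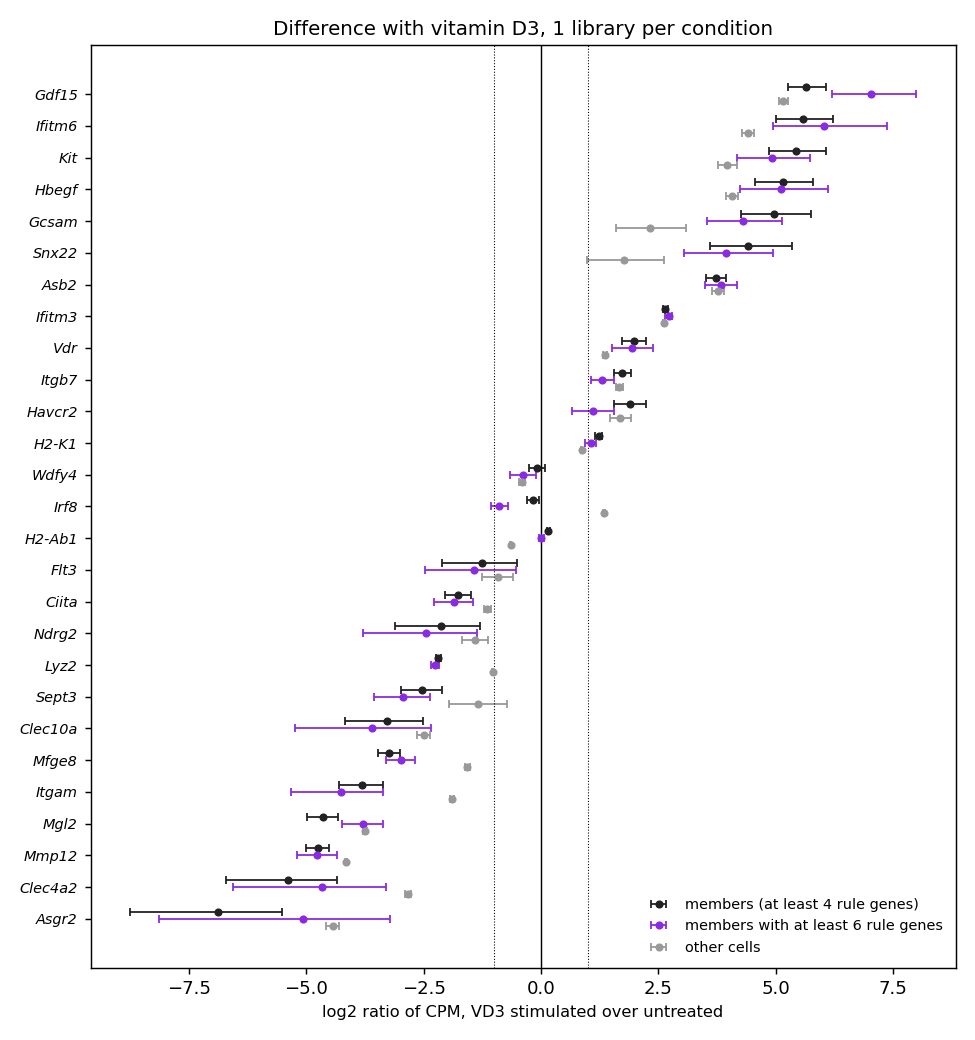
Log2 ratio of counts per 1000000 UMIs in VD3 stimulated over untreated DCs (horizontal axis) for 27 named genes (vertical axis), from UMIs summed over all members (black), members with at least 6 rule genes (purple) and the other cells (grey), with exact 95% intervals for counting error only. Dotted lines mark 2-fold; Kit stood at 5.44 and Mgl2 at -4.65 in members, and Irf8 at -0.16 in members and 1.34 in the other cells.

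Genes of cDC2 and of monocytes and macrophages were lower with VD3. Of 8 cDC2 markers compared, 7 were lower and 0 higher, with a median log2 ratio of -3.05, and the summed level of the 10 in the files went from 1540 CPM in untreated members to 215 CPM with VD3. Mgl2 (ENSMUSG00000040950), a galactose-binding lectin gene, was at 788 CPM (769 to 808) and 31.5 CPM (24.8 to 39.4), and Itgam, the integrin CD11b, at 227 and 16.2 CPM (-3.81, -4.31 to -3.35). Sirpa was at 182 and 63.8 CPM, and at 166 and 39.6 CPM in members with at least 6 rule genes. In the other cells the median of the cDC2 list was -1.89.

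The 16 macrophage and monocyte markers were all seen and summed to 10281 CPM without VD3 and to 2457 CPM with it, with Lyz2 the most abundant at 6068 and 1332 CPM. Of these, 9 were lower and 2 higher, and the median log2 ratio was -1.54. With at least 6 rule genes, 8 of 15 were lower and 1 was higher. Ccr2 (ENSMUSG00000049103), the receptor that brings monocytes out of the marrow, had 3225 UMIs in untreated and 1 UMI in VD3 stimulated members, a log2 ratio of -9.94 (-15.25 to -7.47). It was seen in 34.4% of untreated members at 2000 UMIs (64.7% undrawn) and in 3.65% of neutrophil-marked cells. The elastase gene Mmp12 was at 1664 and 61.7 CPM, and 61.1% of its VD3 UMIs were in 1 member. Ms4a7, typical of macrophages, was higher, at 1.01 and 22.4 CPM (log2 ratio 4.47, 3.38 to 5.75). The part of the cDC2 and macrophage genes in the other differences between the libraries was not tested.

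Among the 15 largest falls were also genes outside these lists, each of the following also lower in the other cells. Ccdc80, a secreted matrix protein gene, had a log2 ratio of -7.39 (-12.69 to -4.90) in members, from 69.3 CPM (63.6 to 75.3) and a single UMI with VD3, and -4.65 in the other cells. Ear2, an eosinophil-associated ribonuclease gene, was at 49.5 and 0.829 CPM, and Fpr2, a receptor for formylated peptides, at 57.5 and 1.24 CPM. Slc7a2, a carrier of cationic amino acids such as arginine, was at 42.9 CPM (38.5 to 47.7) and 1.24 CPM (0.256 to 3.63), with log2 ratios of -5.11 in members and -3.47 in the other cells.

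C-type lectins, a family of receptors many of which bind sugars, were listed together with killer lectins of the same fold. Of 15 compared, 13 were lower with VD3 and 0 higher, with a median log2 ratio of -2.41, and in the other cells 13 of 16 were lower, with a median of -1.53. Clec4a2 was at 121 CPM (114 to 129) and 2.90 CPM (1.17 to 5.98), Clec10a at 56.3 and 5.80 CPM, and Clec4n, which encodes Dectin-2, at 1230 and 313 CPM. Asgr2, a subunit of the asialoglycoprotein receptor, was at 195 CPM (185 to 205) and 1.66 CPM (0.452 to 4.24), a log2 ratio of -6.88 (-8.75 to -5.52). Among 9 pattern recognition receptors, with a median of -0.47, 2 were lower, Tlr2 (-2.37, -2.78 to -1.98) and Tlr13, and Unc93b1, which carries endosomal Toll-like receptors to their place, was higher at 163 and 435 CPM (1.41, 1.29 to 1.53).

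Among 12 MHC class II genes, 2 were lower with VD3 and 0 higher, with a median log2 ratio of -0.16, near the -0.18 of all genes. Ciita was at 175 CPM (166 to 185) and 51.8 CPM (43.1 to 61.7), a log2 ratio of -1.76 (-2.04 to -1.49), and H2-DMb2 was at 114 and 40.2 CPM. H2-Ab1 (ENSMUSG00000073421) was at 2686 CPM (2650 to 2722) and 2995 CPM (2927 to 3065), and Cd74, the invariant chain, at 7981 and 12483 CPM. In the other cells these genes had log2 ratios of -0.64 and -0.23. Of 16 genes of MHC class I and cross-presentation, 3 were higher and 1 was lower, with a median of 0.33. H2-K1 was at 447 and 1053 CPM (1.24, 1.16 to 1.31), H2-D1 at 471 and 1027 CPM, and the peptide transporter gene Tap2 at 61.4 and 134 CPM. With at least 6 rule genes, H2-K1 and H2-D1 were higher and Tap2 was not past 2-fold. Cybb, the oxidase subunit that slows antigen breakdown in phagosomes, was lower at 446 and 108 CPM (-2.04, -2.23 to -1.86). The class Ib genes H2-Q6 and H2-Q7 were among the 15 largest rises, with log2 ratios of 3.71 and 3.43, but reads of such near-identical genes may be assigned to either.

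Adhesion and migration genes changed in both directions. Of 14 integrin and adhesion genes 2 were higher and 6 lower, with a median log2 ratio of -0.68. Itgb7 was at 68.9 CPM (63.2 to 74.9) and 229 CPM (210 to 249), a log2 ratio of 1.73 (1.56 to 1.91), and Itga6 had a ratio of 1.91. Cdh1 was lower, at 127 CPM (119 to 135) and 16.2 CPM (11.5 to 22.1), as were Itgal, Itga4 and the epithelial adhesion gene Epcam. Among the chemokine receptors Ccr2 and Gpr183 were lower. Ccr7 was higher in all members, at 66.9 and 174 CPM (1.38, 1.20 to 1.57), but at 72.5 and 91.5 CPM in those with at least 6 rule genes (0.34, -0.02 to 0.68). The mature DC list had 2 of 8 genes higher, Ccr7 and Il4i1, and a median of 0.52 in all members. In those with at least 6 rule genes 0 were higher and Ccl22 was lower (-2.56, -3.02 to -2.14), with a median of -0.26. Of 11 chemokine genes in all members, Ccl4 was higher and Ccl2, Ccl6, Cxcl2 and Cxcl3 were lower, with a median of -0.44. Of 8 cytokine genes 2 were lower, Il1b and Il1rn, the second at 62.8 and 4.14 CPM, with a median of -0.29.

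Of 19 DC transcription factors, 4 were lower with VD3 and 0 higher, where 10.4% and 4.2% of all genes were, and the median log2 ratio was -0.07 beside -0.18. These were the myeloid factors Cebpa, at 30.4 CPM (26.7 to 34.5) and 2.49 CPM (0.912 to 5.41), Cebpb at 465 and 162 CPM, Klf4 at 75.8 and 30.2 CPM, and Bcl6, a transcriptional repressor, at 24.7 and 9.94 CPM. Runx3 was at 193 CPM in both libraries. Of 11 interferon response genes 5 were higher and 0 lower, with a median of 0.21, including Ifitm3 at 608 and 3813 CPM (2.65, 2.60 to 2.70), Ifitm1 (1.05, 1.02 to 1.08), Irf1 (1.43) and Gbp2 (2.35). In members with at least 6 rule genes Irf1, Gbp2 and Ifitm3 were the 3 higher of 10, Ifitm1 was not past 2-fold (0.68, 0.63 to 0.72) and Ifitm2 was lower (-1.09, -1.28 to -0.91). Of 11 stress and immediate early genes 4 were higher and 0 lower, with a median of 0.83, Jun at 112 and 343 CPM and Zfp36 at 149 and 389 CPM.

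Metabolic and uptake genes were also compared. The rule gene Kmo, an enzyme of the kynurenine pathway of tryptophan breakdown, was at 53.4 and 108 CPM in members, a description since it chose them. Of 7 other genes listed with this pathway, Haao was higher at 10.9 and 29.4 CPM (1.43, 0.96 to 1.90) and the amino acid transporter gene Slc7a5 lower at 56.1 and 11.6 CPM, and the median was 0.05. Of 14 glycolysis genes 4 were lower and 0 higher, beside 10.4% and 4.2% of all genes, with a median of -0.61 beside -0.18. In members with at least 6 rule genes 2 of the 14 were lower, Hk2 and Pfkp, with a median of -0.51, and in all members Pfkp, a phosphofructokinase gene, was at 245 and 46.0 CPM. Of 5 retinoic acid genes 2 were lower, Dhrs3 and Rxra, with a median of -0.70. Of 9 genes of dead cell uptake, 4 were lower and 1 was higher, with a median of -0.96, Mfge8 falling from 627 CPM (610 to 645) to 66.7 CPM (56.8 to 77.8). In members with at least 6 rule genes 2 of 8 were lower, Mfge8 and Stab1, and Havcr2 was higher, as in all members. The NDRG family had 3 genes compared, with a median of -0.69, and Ndrg2 was lower, at 21.8 CPM (18.6 to 25.3) and 4.97 CPM (2.57 to 8.68), a log2 ratio of -2.13 (-3.11 to -1.29). Ndrg1 was lower as well in members with at least 6 rule genes. Of 6 cell cycle markers 0 were higher or lower by this measure, with a median of -0.51 and Mki67 at 160 and 108 CPM. Ube2c was lower in members with at least 6 rule genes (-1.04, -1.41 to -0.68).

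Of 12 costimulation and checkpoint genes, Havcr2, Cd83 and Cd200 were higher and Pdcd1lg2 was lower, and with at least 6 rule genes Havcr2 was the 1 higher and Pdcd1lg2 the 1 lower gene of 10. That limit also moved calls in the lists above that were given for all members only. Among DC transcription factors 5 of 19 were then lower, Nfil3 being added, and among chemokines 6 of 11, with Ccl22 and Cxcl16 added and Ccl4 still higher. The integrin and adhesion genes had 2 higher and 5 lower of 14, the lectins 11 lower of 13, and the cytokines 1 lower of 7, Il1rn. Pattern recognition receptors had Unc93b1 higher and Tlr2 lower of 7, and progenitor markers Kit higher and Flt3 and Csf1r lower of 5.

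Cells that pass the same rule were nearly absent from the other 4 libraries. Ndrg2-KO DCs, which carry a CRISPR knockout of Ndrg2, held 3 among 7969 cells (0.0376%, 0.00776 to 0.110), and the median depth of its other cells was 16318 UMIs. The knockout used nucleofection, which the untreated DCs did not undergo. The wound libraries came from wound tissue, in which the paper names fibroblasts, neutrophils, erythrocytes, and myeloid and lymphoid cells. Shares there are of all wound cells, so they are not comparable with shares of cultured DCs. The wound libraries held 3 such cells among 1948 after control DCs (0.154%, 0.0318 to 0.449). They held 4 among 5681 after Ndrg2-KO DCs (0.0704%, 0.0192 to 0.180) and 2 among 3403 after a blank hydrogel (0.0588%, 0.00712 to 0.212). Median depths of their other cells were 10775, 4414 and 5596 UMIs. The part of depth in these numbers was not tested. Each of these conditions is 1 library, so library and condition cannot be told apart.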

How the data were processed

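The authors deposited UMI counts per gene and cell barcode, not normalized, which Cell Ranger 3.1.0 made for both libraries per the file headers from 10x 3′ v3 libraries. The sources used here differ on the mouse genome build, so no coordinates are given. A barcode was kept as a cell when its mitochondrial UMIs were below 10%, its UMIs below 100000 and its genes 300 or more. The members and the gene lists were chosen with earlier results of these data known. UMIs of each gene were summed over members or other cells of a library and scaled to 1000000. Genes with at least 50 UMIs over both sums were compared (and, for members against other cells, 10 in the members), by log2 ratios with conditional binomial intervals. Poisson intervals were used for sums and Clopper-Pearson intervals for shares. A gene counted as higher or lower at 2-fold between libraries, or 4-fold between members and other cells, with an interval that excluded 1. A sum of 0 was set to 3 counts for bounds.

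Named genes were those of 31 lists (371 of 373 genes in the files), the 20 highest ratios of untreated members over other cells with at least 50 UMIs, and the 15 largest rises and 15 largest falls with VD3 among genes with at least 100 UMIs in a library, without mitochondrial and ribosomal protein genes. Clec6a and Clec7a were not analysed here. Some genes of the lists are not reported here. Neutrophil-marked cells were other cells with UMIs of at least 4 of Ngp, Camp, Ltf, Lcn2, S100a8 and S100a9 at 2000 UMIs, a limit chosen after seeing the data. Scrublet in scanpy 1.11.5 marked 1 untreated cell (0.0138%) and 0 VD3 stimulated cells, so it did not work as a caller and doublets were kept. The highest 6% of its scores held 28 untreated (12.7%) and 12 VD3 stimulated members (9.52%) and were left out in an alternative. They held 11.1% of untreated and 1.96% of VD3 stimulated members with at least 6 rule genes, and 14.7% with 4 or 5 in each library. Other alternatives changed the cell filter, the number of rule genes, depth, scaling, the weight of single cells and the limit on low counts. The steps were tested on simulated data, drawn as independent Poisson counts per gene. Those data had no spread between cells or libraries, so they could not test the intervals against it. Python 3.11.15, NumPy 2.4.6, SciPy 1.17.1, pandas 2.3.3 and matplotlib 3.10.9 were used.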

Additional observations from a re-analysis of the deposited data

Results flagged for a closer look

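Of the genes past 2-fold in both members and other cells, 2 had opposite directions with VD3. Both lie outside the rule for named genes and were chosen after their values were seen, and the difference between members and other cells was not tested. Stfa2, a stefin gene, had 193 UMIs in untreated and 13 UMIs in VD3 stimulated members, a log2 ratio of -2.18 (-3.12 to -1.37), against 1.53 (1.43 to 1.63) in the other cells and -2.59 in members with at least 6 rule genes. Epb41l3, a cytoskeletal linker gene, had 48 and 6 UMIs in members, a log2 ratio of -1.29 (-2.81 to -0.06), against 1.07 (0.85 to 1.29) in the other cells and 0.36 in members with at least 6 rule genes.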

How the results depend on the processing

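No paired analysis was possible because each condition is 1 library. Of 4264 log2 ratios of 286 named genes between the libraries under 16 alternatives, 3163 lay within the interval given above, 1097 lay outside it with the same sign or without a call, and 4 reversed. The 3163 include ratios that could not move. The limits of 20 and 100 UMIs and the filter of 300 UMIs left the member sums unchanged. Their 286, 260 and 286 ratios were therefore the same by construction. In members with fewer than 3 mature DC markers (76 untreated, 72 VD3 stimulated) Cd68 had 0.0853 (-0.42 to 0.58), where all members had it lower at 110 and 54.7 CPM, Dapk2 -0.0705 (-0.43 to 0.29) in place of 1.22, both with intervals that include 0, and S100a9 4.14 in place of -1.34, and with fewer than 3 cell cycle markers (91 and 83) S100a9 had 4.17, where 1 VD3 stimulated member holds most S100a9 UMIs. The share of members in untreated and VD3 stimulated DCs was 4.66% and 2.01% with at least 3 rule genes, 2.25% and 0.986% with at least 5, and 1.74% and 0.578% with at least 6, an alternative chosen after seeing the data. It was 0.634% and 0.365% with 3 genes after drawing cells to 2000 UMIs, and 1.25% and 0.692% with 4 genes at 5000 UMIs. In the same order, the shares were 2.34% and 1.07% without Kmo, and 2.47% and 1.30% without Kctd14. They were 2.84% and 1.10% without Itgae, and 2.73% and 1.14% without Tcea3. Untreated DCs had the higher share in all of these. Each alternative still counts rule genes, so this describes the rule and is not separate evidence. Kctd14 and Klrb1b, lower with VD3 in the other cells, were not left out together. The number of lower genes was 362 of 4771 tested in members with fewer than 3 mature DC markers, 420 of 5434 with fewer than 3 cell cycle markers and 531 of 7058 in members of 5000 to 40000 UMIs, against 950 of 9151. The higher genes in these were 287, 301 and 349, against 384, and the cause of the differences was not tested. Members and other untreated cells of that depth gave 198 of 9328 genes at least 4-fold higher in members, against 94 of 10829, and the cause was not tested. Sums without mitochondrial and ribosomal protein genes added 0.10 to every log2 ratio.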
